A study of Glycine max with 4 samples.

Results

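Across the soybean leaf libraries, 46 transcript models from 37 loci were more abundant with salt than without it, both in seedlings that received no melatonin and in seedlings that did. They were selected on these same libraries, out of 55787 models from 46367 loci. A model was chosen by its RPKM (reads per kilobase of model, scaled to the total count of the library) after 0.1 had been added. That value had to reach 1 in both salt libraries, and to be at least 4 times higher in NaCl than in H2O and at least 4 times higher in NaCl+Mt than in Mt. Every level on either side of these comparisons was therefore used to choose the transcripts, and the values below describe them without a test.

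The leaves came from soybean (Glycine max) seedlings that the labels give as 3 weeks old; the study's own text gives a younger age in its results than in its methods. NaCl+Mt seedlings received 1% NaCl together with 100 µM melatonin, supplied in solution. NaCl seedlings received 1% NaCl alone, Mt seedlings 100 µM melatonin alone, and H2O seedlings water. The study's growth conditions name the cultivar SuiNong 28. The labels give all samples the same temperature and day length, and the treatment time and the number of pooled plants are not given in the sources used here. Each condition was 1 library, so a difference carries no replicate error, and the counting intervals given below (95%, exact binomial) cover counting error only.

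Salt in the soil makes water harder to take up and lets sodium and chloride build up in the leaf. Plants are known to answer with abscisic acid signalling, compatible solutes such as proline and sugars, protective hydrophilic proteins, ion transporters that move sodium into the vacuole or out of the cell, and enzymes that remove reactive oxygen. Melatonin, an indoleamine made from tryptophan, is known in plants both as an antioxidant and as a growth regulator, and treated seedlings often tolerate salt better. None of the 37 loci is named in the gene annotation of the study or could be matched to the RefSeq table used here, so the transcripts are given by their identifiers, and no role or sequence is attached to them.

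Total counts were 28868062 in NaCl, 22908979 in H2O, 36945028 in NaCl+Mt and 23479688 in Mt. The Mt library stood apart in genes that the study listed from these same libraries. The summed level of 40 annotated cell cycle loci was 40.5 RPKM in NaCl, 22.5 in H2O, 35.6 in NaCl+Mt and 363 in Mt, and 22 DNA replication loci summed to 29.6, 32.5, 32.2 and 208 RPKM in the same order of libraries. All 40 and all 22 were at least 2-fold higher in Mt:H2O. Their high Mt level may thus come from how they were listed, and the sums are no independent sign of that library's state. Leaf genes were detected in every library, and H2O was the lowest library for each of 4 leaf markers. Thus rbcS, the small subunit of Rubisco, was at 4429 RPKM in NaCl, 1300 in H2O, 3530 in NaCl+Mt and 6992 in Mt. PsaF, of photosystem I, was at 1198 RPKM in NaCl, 368 in H2O, 900 in NaCl+Mt and 1752 in Mt, and PsbO, of photosystem II, was at 149, 48.4, 99.3 and 198 RPKM in the same order of libraries. The light-harvesting gene LHCB4.3 was at 92.5 RPKM in NaCl, 11.3 in H2O, 68.1 in NaCl+Mt and 56.3 in Mt. The study reports rbcS, PsaF and PsbO as raised by melatonin, and LHCB4.3 as raised over water in every treatment. A low H2O level therefore favoured their listing, and these markers are no independent sign of the state of H2O. The part of either library's state in the values below was not tested. In whole leaves, fewer cells of a type and less RNA per cell cannot be told apart. Because the NaCl+Mt:Mt comparison rests on the Mt library, each group of transcripts is also given below without it, as NaCl+Mt against H2O.

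In NaCl:H2O, 46 of the 46 transcripts were at least 4-fold higher by construction, against 1.14% of the 36981 transcripts that reached the minimum in both salt libraries. In NaCl+Mt:Mt the share over the same 36981 transcripts was 3.16%. The 46 made up 10.9% of the 423 transcripts that met the fold in NaCl:H2O and 3.94% of the 1168 that met it in NaCl+Mt:Mt. Their log2 differences had a median of 2.64 in NaCl:H2O, with a range of 2.002 to 6.81, and a median of 3.16 in NaCl+Mt:Mt, with a range of 2.01 to 6.69. Over all transcripts tested, those with at least 1 RPKM in 1 or both of the compared libraries, the medians were -0.14 in NaCl:H2O and -0.09 in NaCl+Mt:Mt. The same rule turned round, for transcripts lower with salt in both comparisons, was met by 126 transcripts of 119 loci.

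**Figure D1:**
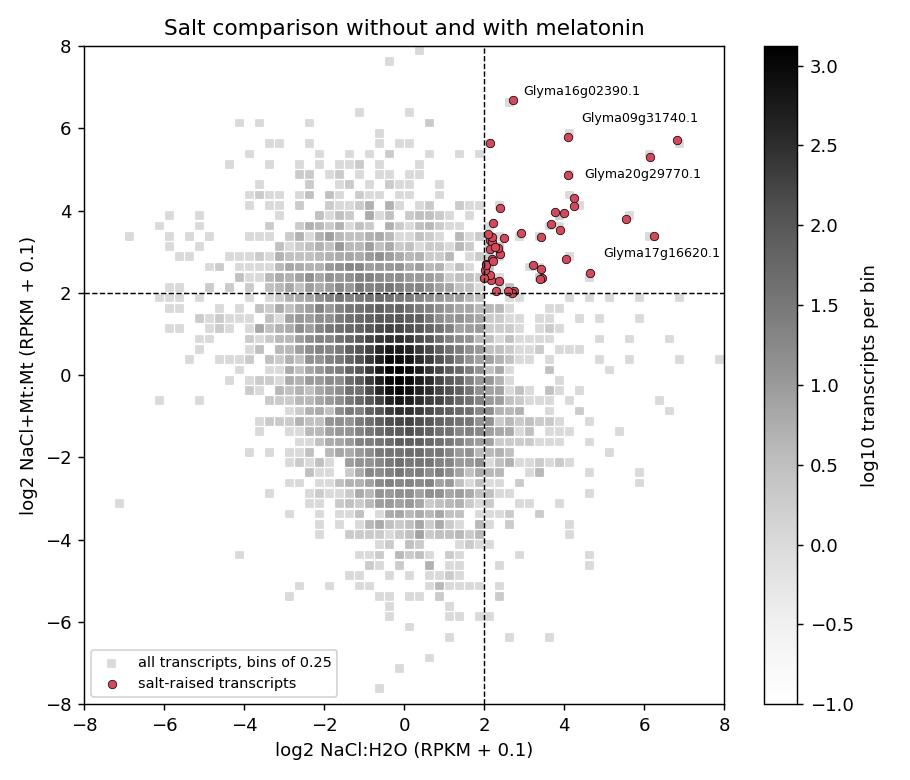
Log2 difference of NaCl from H2O (x axis) against log2 difference of NaCl+Mt from Mt (y axis), both on RPKM + 0.1. Grey squares are bins over 36979 transcripts with both salt libraries at or above the minimum (2 more lie beyond the axes), red points are the 46 salt-raised transcripts, and dashed lines mark the 4-fold limits that chose them. The points reach 6.81 on the x axis (Glyma09g31740.1) and 6.69 on the y axis (Glyma16g02390.1).

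The median level of the 46 was 36.9 RPKM in NaCl, 3.28 in H2O, 12.3 in NaCl+Mt and 0.766 in Mt. NaCl was the highest library for 40 transcripts and NaCl+Mt for the other 6. Mt was the lowest for 41 and H2O for 3, and the remaining 2 had no count in either. The order NaCl, NaCl+Mt, H2O, Mt, high to low, was found in 33 transcripts. Over the 36981 transcripts above the minimum, NaCl was the highest library for 20.3% and NaCl+Mt for 15.0%, and Mt was the lowest for 33.9% and H2O for 19.2%. By the rule, only NaCl or NaCl+Mt could be the highest in a chosen transcript, and only H2O or Mt the lowest. The counts for the 46 are therefore largely set by the selection and are not comparable with these shares.

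**Figure D2:**
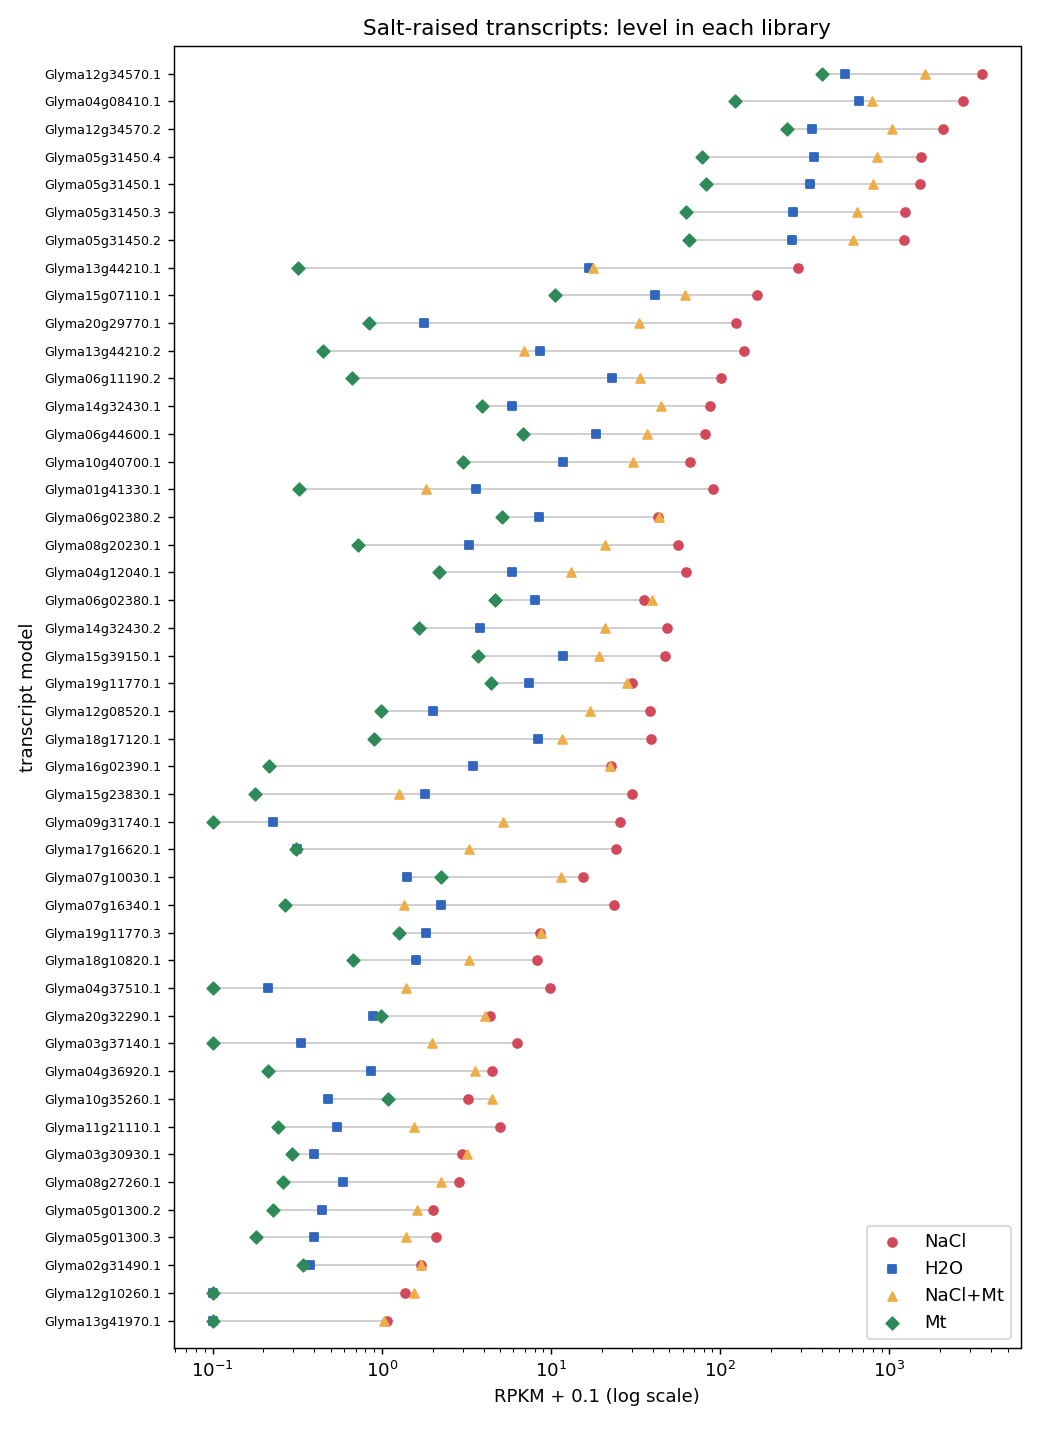
RPKM + 0.1 on a log axis for each of the 46 salt-raised transcripts (rows, sorted by the mean of the salt libraries) in NaCl, H2O, NaCl+Mt and Mt, with 1 library a point. Levels span 0.971 to 3524 RPKM in NaCl, and the Mt point is the leftmost in 41 rows.

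Counts were concentrated in 3 abundant loci. The 46 transcripts held 1.65% of all counts in NaCl, against 0.33% in H2O. With melatonin they held 0.748% in NaCl+Mt, against 0.11% in Mt. Of these shares, Glyma05g31450 took 0.76% in NaCl, 0.171% in H2O, 0.4% in NaCl+Mt and 0.0401% in Mt through its 4 models. The 39 transcripts outside the 3 loci held only 0.18% in NaCl, 0.0233% in H2O, 0.0652% in NaCl+Mt and 0.00705% in Mt. Counted with 1 model per locus, the set held 0.907% in NaCl, 0.176% in H2O, 0.368% in NaCl+Mt and 0.061% in Mt. Counted this way, Glyma05g31450 held 0.175% in NaCl, less than Glyma12g34570 (0.293%) and Glyma04g08410 (0.278%).

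**Figure D3:**
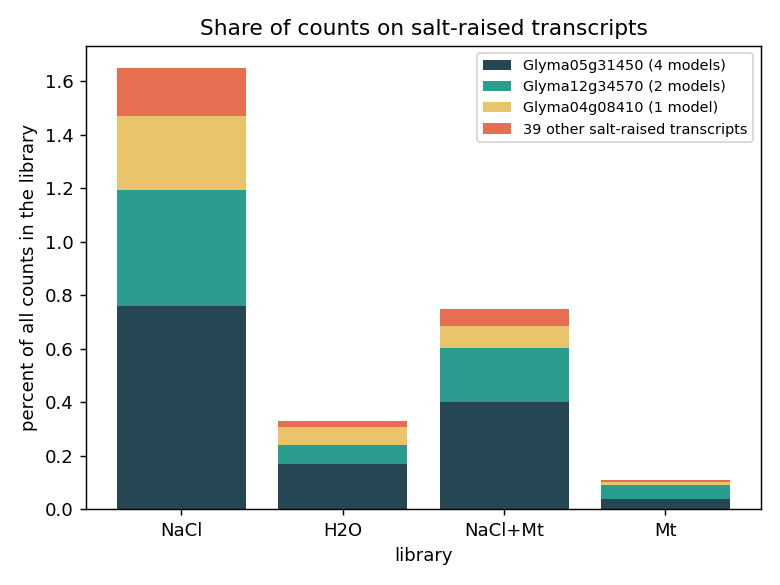
Percent of all counts in each library that fell on the salt-raised transcripts (stacked bars, from 0), split into Glyma05g31450, Glyma12g34570, Glyma04g08410 and the 39 other transcripts. The bars reach 1.65% in NaCl, 0.33% in H2O, 0.748% in NaCl+Mt and 0.11% in Mt. All chosen models of a locus are summed, and these can share reads.

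Glyma12g34570.1 was the most abundant of the set, at 3524 RPKM in NaCl (11th of all transcripts), 545 in H2O, 1611 in NaCl+Mt and 401 in Mt. Its second model, Glyma12g34570.2, was at 2081 RPKM in NaCl, 347 in H2O, 1030 in NaCl+Mt and 249 in Mt. Both models were therefore abundant leaf transcripts even without salt. The count ratio of Glyma12g34570.1 was 6.46 in NaCl:H2O (interval 6.33 to 6.6) and 4.02 in NaCl+Mt:Mt (3.92 to 4.12), so the second ratio stood just at the limit of the rule.

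Glyma05g31450 was represented by 4 models, all of them in the set. Glyma05g31450.4 was at 1528 RPKM in NaCl, 360 in H2O, 846 in NaCl+Mt and 78.5 in Mt, and Glyma05g31450.1 was at 1510, 340, 797 and 82.4 RPKM in the same libraries. Glyma05g31450.3 had 1234 RPKM in NaCl, 270 in H2O, 643 in NaCl+Mt and 63.0 in Mt. Glyma05g31450.2 had 1219 RPKM in NaCl, 265 in H2O, 610 in NaCl+Mt and 65.1 in Mt. The 4 models differed little from each other, with log2 values of 2.09 to 2.20 in NaCl:H2O and 3.23 to 3.43 in NaCl+Mt:Mt. The study's methods speak of reads that mapped uniquely to a gene. Models of 1 locus overlap and can share such reads, and how these were divided among models is not given in the sources used here, so they count as 1 locus and not as 4 observations.

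Glyma04g08410.1, the third abundant locus, behaved differently once water was taken as the reference for the melatonin-treated salt library. Its level was 2706 RPKM in NaCl, 661 in H2O, 784 in NaCl+Mt and 122 in Mt. The count ratio was 4.1 in NaCl:H2O (interval 4.03 to 4.17) and 6.45 in NaCl+Mt:Mt (6.21 to 6.7), but NaCl+Mt differed from H2O by only 0.25 on the log2 scale.

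At the other end of the range, some transcripts were close to undetected without salt. In H2O, 2 of the 46 had no count and 8 had at most 3. In Mt, 5 had none and 12 had at most 3. For these, ratios rest on very few reads, and an "at least" value below is set against a floor of 3 counts per library.

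On the RPKM + 0.1 scale, Glyma09g31740.1 had the largest fold of the set when the smaller of the salt comparisons was taken. It had 503 counts (25.6 RPKM) in NaCl and 2 (0.128 RPKM) in H2O, and 129 counts (5.13 RPKM) in NaCl+Mt and none in Mt. The count ratio in NaCl:H2O was 200 (interval 55.0 to 1653), and NaCl+Mt was at least 27.3-fold higher than Mt. Glyma17g16620.1 was similar, with 278 counts (23.96 RPKM) in NaCl against 2 (0.217 RPKM) in H2O, and 47 counts (3.16 RPKM) in NaCl+Mt against 2 (0.212 RPKM) in Mt. Its count ratios were 110 (30.3 to 915) and 14.9 (3.91 to 127) in these comparisons. Both transcripts were thus nearly absent from both libraries without salt, and several-fold less abundant in NaCl+Mt than in NaCl.

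Glyma20g29770.1 joined a high level to a large fold. Its level was 124.6 RPKM in NaCl, from 5817 counts, against 1.67 RPKM in H2O, from 62 counts. With melatonin it was 33.1 RPKM in NaCl+Mt, from 1978 counts, against 0.738 RPKM in Mt, from 28 counts. The count ratios, 74.5 (interval 58.0 to 97.2) and 44.9 (31.0 to 67.7), both had lower limits far above 4.

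Glyma04g37510.1 and Glyma03g37140.1 had no count in Mt. Glyma04g37510.1 had 219 counts (9.76 RPKM) in NaCl against 2 (0.112 RPKM) in H2O, and 37 counts (1.29 RPKM) in NaCl+Mt, which was at least 7.84-fold higher than Mt. Glyma03g37140.1 had 100 counts (6.21 RPKM) in NaCl against 3 (0.235 RPKM) in H2O, and 39 counts (1.89 RPKM) in NaCl+Mt, at least 8.26-fold higher than Mt. Their count ratios in NaCl:H2O were 86.9, with a lower limit of 23.8, and 26.5, with a lower limit of 8.79.

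The fewest counts were those of Glyma12g10260.1 and Glyma13g41970.1, which had no count in either H2O or Mt. Glyma12g10260.1 had 15 counts (1.27 RPKM) in NaCl and 22 (1.46 RPKM) in NaCl+Mt. That made it at least 3.97-fold higher in NaCl than in H2O and at least 4.66-fold higher in NaCl+Mt than in Mt. Glyma13g41970.1 had 9 counts (0.971 RPKM) in NaCl and 11 (0.928 RPKM) in NaCl+Mt, with bounds of at least 2.38-fold and at least 2.33-fold. On counts alone, neither bound of Glyma13g41970.1 reached the 4-fold limit, and it entered the set through the small value added to its RPKM.

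NaCl+Mt was also set against H2O, a comparison that the rule did not ask for directly although it used both libraries. In NaCl+Mt:H2O, 35 of the 46 transcripts were higher by 2-fold or more, 0 were lower by as much, and the other 11 were within 2-fold. Over all 39662 transcripts tested, 4.97% were higher by this margin and 3.97% lower. Of the 46, 45 reached the 1 RPKM asked of that background, and 34 of those were higher. The median log2 value of the 46 was 1.89, against -0.07 over all transcripts. A high NaCl+Mt level and a low H2O level both helped a transcript to be chosen. The counts and the median are therefore partly set by the selection and describe the set. In NaCl+Mt:H2O, 21 transcripts (19 loci) were at least 4-fold above water. Another 14 (9 loci) were between 2-fold and 4-fold above it, and 11 (10 loci) were less than 2-fold above it. Glyma19g11770 had models in 2 of these groups. NaCl+Mt and H2O differ in both salt and melatonin, so this comparison describes the spread within the set and is no check of the salt comparison at equal melatonin, which all 46 met. In Mt:H2O the median log2 values of the 3 groups were -0.73, -1.21 and -3.22 in the order just given. This order partly follows from the grouping. With the 4-fold limit in NaCl+Mt:Mt, Mt had to lie below H2O in the second group and more than 2-fold below it in the third. The limits between the groups are arbitrary, and Glyma06g44600.1 falls in the third with a fold of 1.99.

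**Figure D4:**
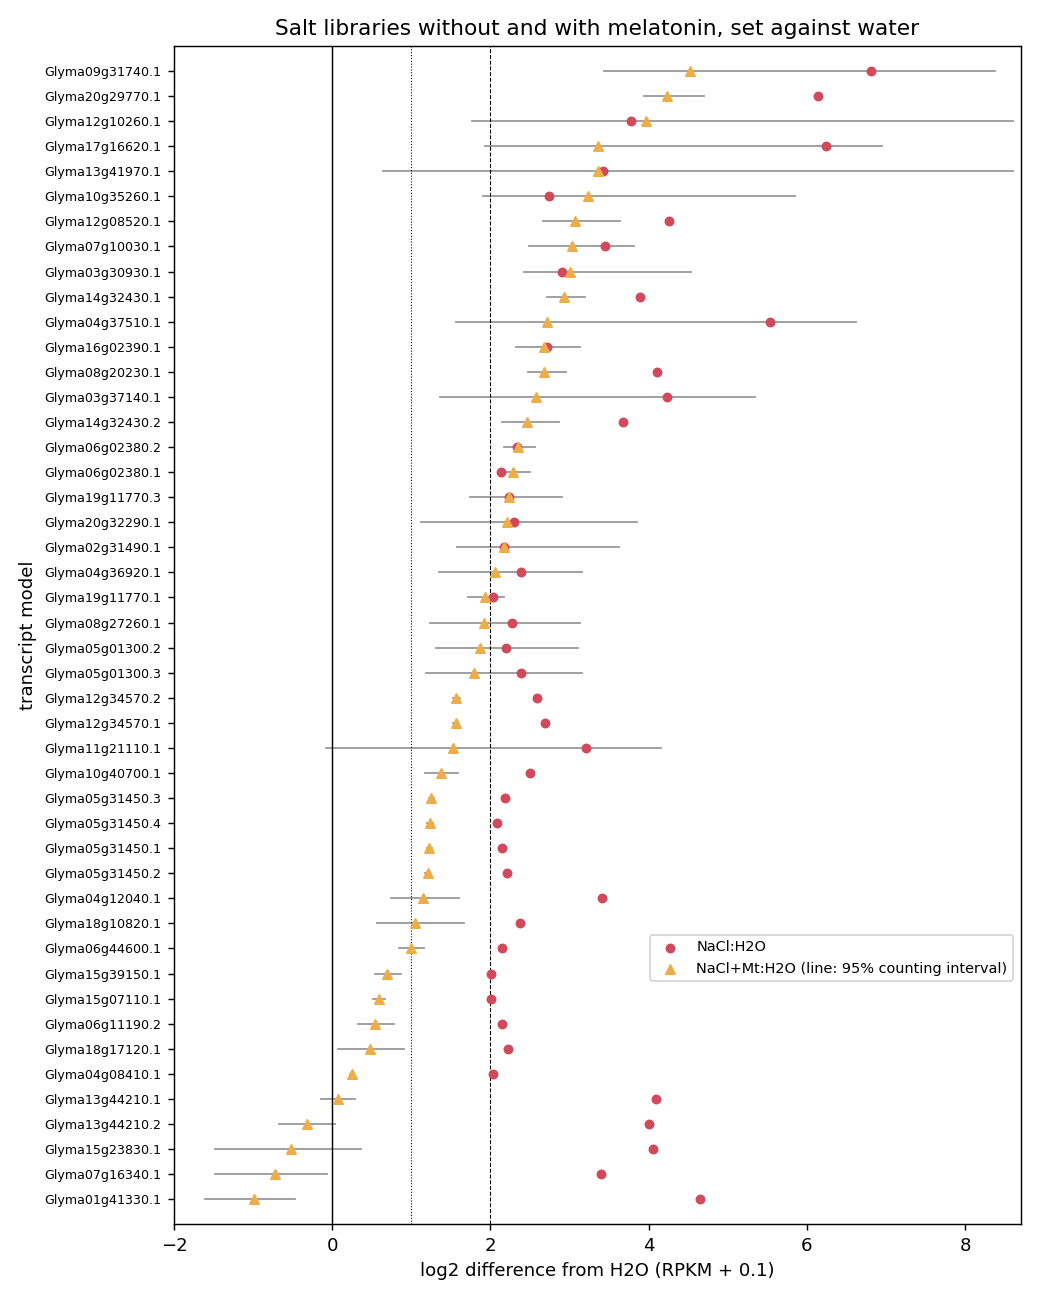
Log2 difference from H2O for NaCl (red) and NaCl+Mt (yellow, with its 95% counting interval on raw counts as a line) for the 46 transcripts, on RPKM + 0.1. The solid, dotted and dashed lines mark no difference, 2-fold and 4-fold, and lines that run to the right edge have no upper limit because H2O had no count. The yellow triangles range from -0.99 (Glyma01g41330.1) to 4.52 (Glyma09g31740.1), and 11 lie below the 2-fold line.

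Among the 21 transcripts at least 4-fold above water in both salt libraries, several had almost the same level in NaCl+Mt as in NaCl. Glyma06g02380.2 was at 42.9 RPKM in NaCl against 8.41 in H2O, and at 43.2 in NaCl+Mt against 5.03 in Mt. Its other model, Glyma06g02380.1, was at 35.3 RPKM in NaCl against 7.96 in H2O, and at 39.2 in NaCl+Mt against 4.57 in Mt. Glyma16g02390.1 was at 22.7 RPKM in NaCl against 3.37 in H2O, and at 22.1 in NaCl+Mt against 0.115 in Mt. The log2 values of these 3 in NaCl+Mt:NaCl lay between -0.04 and 0.15, while without salt Glyma16g02390.1 had only 2 counts in Mt against 57 in H2O. That low value gave it the largest log2 value of the set in NaCl+Mt:Mt, 6.69, and a count ratio of 191 with an interval of 52.7 to 1583.

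Less abundant transcripts of this group within 2-fold between the salt libraries included Glyma03g30930.1, Glyma02g31490.1, Glyma20g32290.1, Glyma10g35260.1, Glyma04g36920.1 and Glyma19g11770.3. Their log2 values in NaCl+Mt:NaCl ran from -0.33 (Glyma04g36920.1) to 0.48 (Glyma10g35260.1). Also within 2-fold were Glyma12g10260.1 and Glyma13g41970.1, given above, and Glyma07g10030.1 (-0.42) and Glyma14g32430.1 (-0.96), given below. Glyma03g30930.1 was at 2.89 RPKM in NaCl against 0.298 in H2O, and at 3.10 in NaCl+Mt against 0.194 in Mt. Glyma02g31490.1 was at 1.60 RPKM in NaCl against 0.277 in H2O, and at 1.60 in NaCl+Mt against 0.243 in Mt. Glyma20g32290.1 was at 4.27 RPKM in NaCl against 0.787 in H2O, and at 3.98 in NaCl+Mt against 0.895 in Mt. These 3 had between 41 and 151 counts in the salt libraries and at most 10 in the others, so their folds are loosely bounded. Glyma10g35260.1 was at 3.11 RPKM in NaCl against 0.380 in H2O, and at 4.39 in NaCl+Mt against 0.988 in Mt. Glyma04g36920.1 was at 4.41 RPKM in NaCl against 0.760 in H2O, and at 3.48 in NaCl+Mt against 0.114 in Mt. For Glyma19g11770.3 the values were 8.51 RPKM in NaCl against 1.74 in H2O, and 8.58 in NaCl+Mt against 1.17 in Mt.

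Other transcripts of this group were clearly above water in both salt libraries but lower in NaCl+Mt than in NaCl. Glyma08g20230.1 was at 56.4 RPKM in NaCl against 3.19 in H2O, and at 20.9 in NaCl+Mt against 0.626 in Mt. Glyma12g08520.1 was at 38.5 RPKM in NaCl against 1.92 in H2O, and at 16.9 in NaCl+Mt against 0.890 in Mt. Glyma14g32430.1 was at 86.9 RPKM in NaCl against 5.79 in H2O, and at 44.8 in NaCl+Mt against 3.82 in Mt. In all 3, NaCl+Mt still stood above H2O, by 2.67 to 3.07 on the log2 scale. The other model, Glyma14g32430.2, followed with 48.5 RPKM in NaCl against 3.69 in H2O, and 20.8 in NaCl+Mt against 1.55 in Mt. Glyma07g10030.1 was the only transcript of more than 20 counts in each library that was higher in Mt than in H2O, with 15.3 RPKM in NaCl against 1.31 in H2O, and 11.4 in NaCl+Mt against 2.15 in Mt.

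The 14 transcripts between 2-fold and 4-fold above water in NaCl+Mt held 2 of the abundant loci, Glyma05g31450 and Glyma12g34570. Of the others, Glyma04g12040.1 was at 63.0 RPKM in NaCl against 5.82 in H2O, and at 13.0 in NaCl+Mt against 2.08 in Mt. Glyma10g40700.1 was at 66.3 RPKM in NaCl against 11.6 in H2O, and at 30.3 in NaCl+Mt against 2.94 in Mt. Glyma19g11770.1 was at 30.1 RPKM in NaCl against 7.28 in H2O, and at 27.998 in NaCl+Mt against 4.32 in Mt. The last of these had a log2 value of -0.11 in NaCl+Mt:NaCl, whereas Glyma04g12040.1 had one of -2.27.

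The remaining transcripts of that group were low. Glyma18g10820.1 was at 8.15 RPKM in NaCl against 1.49 in H2O, and at 3.19 in NaCl+Mt against 0.576 in Mt. Glyma11g21110.1 was at 4.90 RPKM in NaCl against 0.441 in H2O, and at 1.46 in NaCl+Mt against 0.143 in Mt, the last from 1 count. Glyma08g27260.1 was at 2.76 RPKM in NaCl against 0.492 in H2O, and at 2.13 in NaCl+Mt against 0.160 in Mt. For Glyma11g21110.1 the interval of the NaCl+Mt:Mt count ratio of 10.2 ran from 1.58 to 426, so these few reads leave its fold almost free. Glyma05g01300.3 was at 1.99 RPKM in NaCl against 0.300 in H2O, and at 1.29 in NaCl+Mt against 0.0799 in Mt. Glyma05g01300.2 was at 1.92 RPKM in NaCl against 0.341 in H2O, and at 1.51 in NaCl+Mt against 0.128 in Mt.

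The 11 transcripts less than 2-fold above water in NaCl+Mt had a median log2 value of 0.25 in NaCl+Mt:H2O, and 4 of them were below water. In Mt:H2O their median was -3.22, and under salt, in NaCl+Mt:NaCl, it was -1.79. Each of the 11 had to be more than 2-fold lower in both comparisons. That follows from the 4-fold limits of the rule and the 2-fold limit of this group. Glyma13g44210.1 had the lowest log2 value of them in Mt:H2O, at -5.72. It was at 286 RPKM in NaCl against 16.7 in H2O, and at 17.6 in NaCl+Mt against 0.220 in Mt, so that the level with salt and melatonin was that of water. Its second model, Glyma13g44210.2, was at 138 RPKM in NaCl against 8.53 in H2O, and at 6.84 in NaCl+Mt against 0.350 in Mt.

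Glyma01g41330.1, Glyma07g16340.1 and Glyma15g23830.1 were lower in NaCl+Mt than in H2O. Glyma01g41330.1 was at 90.4 RPKM in NaCl against 3.52 in H2O, and at 1.72 in NaCl+Mt against 0.225 in Mt. Glyma07g16340.1 was at 23.4 RPKM in NaCl against 2.13 in H2O, and at 1.25 in NaCl+Mt against 0.168 in Mt. Glyma15g23830.1 was at 29.9 RPKM in NaCl against 1.71 in H2O, and at 1.16 in NaCl+Mt against 0.0793 in Mt. For the first 2 the counting interval of NaCl+Mt:H2O lay below no difference, and for Glyma15g23830.1 and both models of Glyma13g44210 it included no difference. Glyma01g41330.1 had the largest difference of the set between the salt libraries, with a log2 value of -5.64 in NaCl+Mt:NaCl.

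The other transcripts of this group were higher in NaCl+Mt than in H2O, by 0.25 (Glyma04g08410.1, above) to 0.995 (Glyma06g44600.1) on the log2 scale. Glyma06g11190.2 was at 101 RPKM in NaCl against 22.8 in H2O, and at 33.3 in NaCl+Mt against 0.568 in Mt. Glyma15g07110.1 was at 166 RPKM in NaCl against 41.0 in H2O, and at 61.9 in NaCl+Mt against 10.5 in Mt. Glyma18g17120.1 was at 38.8 RPKM in NaCl against 8.26 in H2O, and at 11.5 in NaCl+Mt against 0.795 in Mt. In each of these the H2O level lay between those of NaCl+Mt and Mt. Glyma06g44600.1 was at 81.7 RPKM in NaCl against 18.4 in H2O, and at 36.8 in NaCl+Mt against 6.70 in Mt. Glyma15g39150.1 was at 47.3 RPKM in NaCl against 11.7 in H2O, and at 19.0 in NaCl+Mt against 3.62 in Mt.

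Melatonin was set against its absence in the same way, with and without salt. In Mt:H2O, 30 of the 46 transcripts were at least 2-fold lower and 1 (Glyma10g35260.1) was higher by that much, while 15 were within 2-fold. Over all 42935 transcripts tested, 13.2% were at least 2-fold lower and 20.9% at least 2-fold higher. The median log2 value of the 46 was -1.19, against 0.01 over all transcripts. Only 31 of the 46 reached 1 RPKM in 1 or both of these libraries, and of those 23 were lower by 2-fold or more and 0 higher. That transcript had 8 counts in Mt against 3 in H2O, with a count ratio of 2.6 (interval 0.624 to 15.2). Since a low Mt level helped a transcript to be chosen, and a low H2O level did too, these counts describe the set and carry no further reading.

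Under salt, 25 of the 46 were at least 2-fold lower in NaCl+Mt than in NaCl and 0 at least 2-fold higher, while 21 were within 2-fold. The shares over all 39637 transcripts tested were 4.5% lower and 10.4% higher. High levels in NaCl and in NaCl+Mt both helped a transcript to be chosen. The 11 transcripts less than 2-fold above water in NaCl+Mt had to be at least 2-fold lower here. These counts, too, describe the set and carry no further reading. The median log2 value of the 46 in NaCl+Mt:NaCl was -1.13, with a range of -5.64 to 0.48, against 0.06 over all transcripts. The counting interval lay below no difference for 32 transcripts, included it for 13 and lay above it for 1, Glyma06g02380.1. The interval of Glyma06g02380.1 included no difference after median-of-ratios scaling. Intervals are narrow where counts are high, models of 1 locus can share reads, and the same was not counted over all transcripts. The interval counts therefore describe the set as well. Median-of-ratios size factors, used in place of the total, turned the sign of NaCl+Mt:NaCl in 2 transcripts near 0, Glyma06g02380.2 and Glyma19g11770.3, and gave 28 transcripts that were at least 2-fold lower in place of 25.

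**Figure D5:**
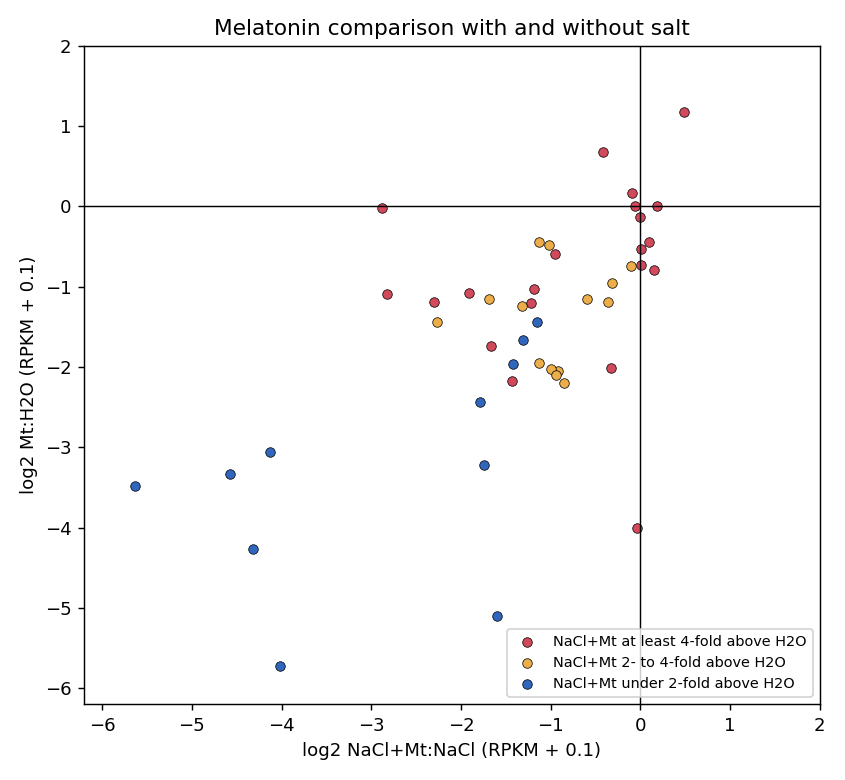
Log2 NaCl+Mt:NaCl (x axis) against log2 Mt:H2O (y axis), both on RPKM + 0.1, for the 46 transcripts, coloured by how far NaCl+Mt stood above H2O. The 11 transcripts less than 2-fold above H2O (blue) lie between -5.64 and -1.15 on the x axis and between -5.72 and -1.44 on the y axis, and Glyma16g02390.1 lies at -0.04 and -4.01. The rule and the grouping together placed the blue points more than 2-fold below no difference on both axes.

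The salt comparison was larger with melatonin than without it in 26 transcripts and smaller in 20. The log2 value with melatonin minus that without had a median of 0.24 and ranged from -2.86 (Glyma17g16620.1) to 3.97 (Glyma16g02390.1). It was within 2-fold for 30 transcripts, at least 2-fold larger with melatonin for 9 and at least 2-fold smaller for 7. Both extremes rest on few reads, with 2 counts in Mt for Glyma16g02390.1 and 2 in each of H2O and Mt for Glyma17g16620.1. The rule held both salt folds at 4 or more, and the same counts were not made over all transcripts. These numbers therefore describe the set and carry no further reading. With 1 library per condition, no test of this difference was possible.

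Of the 37 loci, 28 had a single model in the table and 9 had several. Of the 51 models of all 37 loci, 5 were not members. Glyma15g23830.2 had 76 counts in NaCl against 4 in H2O but only 5 in NaCl+Mt against 3 in Mt, so it failed on the comparison with melatonin. Glyma19g11770.4 failed there too, with 250 counts in NaCl+Mt against 46 in Mt, a fold of 3.35 on the RPKM + 0.1 scale. The other 3 failed in NaCl:H2O: Glyma06g11190.1 with a fold of 3.88, Glyma19g11770.2 with 3.68 and Glyma05g01300.1 with 2.12. Glyma05g01300.1 had 34 counts in H2O against 13 and 11 in the member models of the same locus, while the 3 models had 92 to 96 counts in NaCl.

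Member loci were found on all 20 chromosomes, as read from the locus names, and chromosome 4 held the most, with 4. None of the 74 loci next to them in the order of locus names was itself a member. With 37 member loci among 46367, few or none of the 74 would be members in any case. Of those neighbours, 42 reached the minimum in both salt libraries, and 1 of the 42 was at least 2-fold higher in both salt comparisons. Among all transcripts above the minimum, 288 were. In NaCl:H2O, 6 of the 42 were higher by that much, against 6.58% of the 36981 transcripts above the minimum, and in NaCl+Mt:Mt 8 were, against 11.2%. No test was made on these few neighbours. The coding length, as almost all listed lengths are multiples of 3, had a median of 841.5 bases in the 46 transcripts and 1072 bases in the 36981 transcripts above the minimum.

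At the edge of the rule, the smaller fold was 4.01 for Glyma15g39150.1, 4.02 for Glyma12g34570.1 and 4.03 for Glyma15g07110.1, just inside. Just outside it was 3.997 for Glyma02g17210.1, 3.93 for Glyma17g30800.1 and 3.92 for Glyma08g21510.1. Glyma12g12230.1, at 3.91, was an abundant transcript of the same pattern that missed the rule only in NaCl+Mt:Mt, with 1541 RPKM in NaCl against 197 in H2O, and 899 in NaCl+Mt against 230 in Mt. Glyma08g09450.1, at 3.89, was at 23.6 RPKM in NaCl against 3.57 in H2O, and at 6.60 in NaCl+Mt against 1.62 in Mt. A further 16 transcripts reached both folds but not the minimum level, among them Glyma13g29090.1 with 92 counts in NaCl and 14 in NaCl+Mt and none in H2O or Mt. In the set itself, 21 transcripts had a smaller fold between 4 and 5, and 13 had one of 10 or more. By the counting intervals, both count ratios had a lower limit of at least 4 in 22 transcripts and of at least 2 in 44, and Glyma11g21110.1 and Glyma13g41970.1 were the other 2.

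The annotated genes for processes that salt is known to touch lay outside the set. No member locus was among the 237 loci that the study annotated, a selection it made on these same libraries. With only 237 of 46367 loci annotated, few or none of the 37 member loci would be among them in any case. The lack of overlap therefore carries no further reading. Over all transcripts with at least 1 RPKM in 1 or both libraries, NaCl:H2O gave 7.12% at least 2-fold higher and 12.1% lower by as much, while the shares for NaCl+Mt:Mt were 10.9% higher and 19.3% lower. Of 4 proline synthesis loci (P5CS2 and proC), 2 were at least 2-fold higher in NaCl:H2O and 0 lower, but in NaCl+Mt:Mt 4 were at least 2-fold lower. Their summed level was 9.3 RPKM in NaCl against 6.26 in H2O, and 7.72 in NaCl+Mt against 43.7 in Mt. Of 8 sucrose synthase and trehalose phosphatase loci, NaCl:H2O gave 1 that was higher and 1 that was lower, and NaCl+Mt:Mt gave 8 that were lower. Among 23 photosynthesis loci, NaCl:H2O gave 13 higher and 2 lower ones, while NaCl+Mt:Mt gave 15 lower and 0 higher ones. The 2 ascorbate loci (APX4 and VTC4) were both at least 2-fold lower in NaCl:H2O, and 1 of them was at least 2-fold lower in NaCl+Mt:Mt. In Mt:H2O, all 4 proline and all 8 sucrose and trehalose loci, and 21 of the 23 photosynthesis loci, were at least 2-fold higher. In NaCl+Mt:H2O, 0 loci of these 3 lists were at least 2-fold lower, and 14 photosynthesis loci were higher. The lower values of these 3 lists in NaCl+Mt:Mt may thus come from how they were listed, which was not tested.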

How the data were processed

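Total RNA from seedling leaves was sequenced for the authors by a company, as 1 library per condition. Per the study's methods, trimmed reads were mapped to the soybean genome with BWA 0.7.4, and the build is not given in the sources used here. The deposited table gives raw read counts and the length of each transcript model. It also gives RPKM values computed by the authors, which are listed at 0 for some models that have reads (10 of the 46 transcripts in H2O and 14 in Mt), so RPKM was recomputed from the counts, model length and column total.

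A pseudocount of 0.1 was added before log2 differences. With 1 library per condition no test was run and no p-value is given. Count ratios, scaled by column totals, have exact binomial 95% intervals, and folds against 0 counts use a floor of 3 counts per library. Scripts were tested on simulated data and ran in Python 3.11.15 with numpy 2.4.6, pandas 2.3.3, scipy 1.17.1 and matplotlib 3.10.9. A call outside the rule was a 2-fold difference among transcripts of at least 1 RPKM in 1 or both of the compared libraries.

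The transcripts and gene lists were chosen with earlier results of these data known. Transcripts to be named were those largest in fold or level, those that the study lists, those of loci with several models and those at the threshold, and every member is given. Lists by RefSeq description, promoters and proteins were planned, but 0 of the 37 loci matched the RefSeq table. Alternatives were another pseudocount, minimum, fold or scaling, the deposited RPKM, raised low counts and 1 transcript per locus.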

Additional observations from a re-analysis of the deposited data

Results flagged for a closer look

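Glyma06g02380.1 was the only transcript of the set whose melatonin comparison pointed in opposite directions with and without salt, with counting intervals on either side of no difference. Its log2 value was 0.15 in NaCl+Mt:NaCl, from 1889 counts in NaCl+Mt against 1329 in NaCl, and -0.79 in Mt:H2O, from 140 counts in Mt against 238 in H2O. The difference between them was 0.94. With 1 library per condition this difference was not tested. After median-of-ratios scaling the count ratio in NaCl+Mt:NaCl was 1.057, with an interval of 0.985 to 1.135, so its direction under salt was no longer outside counting error, while Mt:H2O stayed below no difference (0.579, 0.467 to 0.716). Its other model, Glyma06g02380.2, stood at 0.01 in NaCl+Mt:NaCl and -0.73 in Mt:H2O.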

How the results depend on the processing

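With 1 library per condition, the differences between libraries cannot be told apart from the spread between plants, and the Mt library enters every NaCl+Mt:Mt value. The number of transcripts, 46, depended most on the fold: it was 288 at 2-fold, 91 at 3-fold and 13 at 8-fold. It was 23 with a pseudocount of 1 and 28 with a minimum of 5 RPKM. It stayed within 1.5 times of 46 with a pseudocount of 0.01 (51), no minimum (62), median-of-ratios scaling (55), the deposited RPKM (57, of which 42 were shared), counts under 3 set to 3 (42) and 1 transcript per locus (36). With the deposited RPKM the medians were 3.87 in NaCl:H2O, 3.59 in NaCl+Mt:Mt, -0.68 in Mt:H2O and 2.67 in NaCl+Mt:H2O. A further 3 alternatives were chosen after seeing the data. Asking also for NaCl+Mt at least 4-fold above H2O left 21 transcripts, with medians of 3.45 in NaCl:H2O, 3.52 in NaCl+Mt:Mt, -0.73 in Mt:H2O, -0.33 in NaCl+Mt:NaCl and 2.71 in NaCl+Mt:H2O. Asking for 2-fold left 35, and leaving out transcripts of 3 counts or fewer in H2O or Mt left 33. No median changed sign under the alternatives for which medians were computed, which leaves out the other folds. Median-of-ratios scaling moved the median of all transcripts in NaCl:H2O by 0.14 and in the other comparisons by less than 0.1. No paired analysis was possible because each condition had 1 library.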
